A study of Drosophila melanogaster with 2 samples.

Results

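The mitochondrial ribosomal protein genes of Drosophila melanogaster were taken as the protein-coding genes of the Ensembl annotation whose symbol starts with mRpL (large subunit) or mRpS (small subunit). They number 73 of 13968 protein-coding genes, with 47 for the large and 26 for the small subunit. All samples belonged to 1 group of 2 biological replicates, made from whole embryos aged 0 to 24 h of the strain rib-GFP, which carries an insertion that targets rib and makes the protein as a fusion with eGFP. Chromatin bound by the fusion was recovered with an anti-GFP antibody and sequenced (ChIP-seq). A separate antibody entry in the labels gives rib. Both replicates carry the transgene, no control sample was among those used here, and embryos of all ages and tissues were mixed, so a peak cannot be given to a cell type or a stage. The lists give no read counts, so the depth behind each value is unknown.

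The mitochondrial ribosome translates the few proteins of the respiratory chain that mitochondrial DNA encodes. Its RNA comes from mitochondrial DNA, but all of its proteins are encoded in the nucleus, made in the cytoplasm and imported, so their genes are transcribed by RNA polymerase II like other housekeeping genes. Some of these proteins have counterparts in bacterial ribosomes, and the others were added in the mitochondrial lineage. The protein encoded by rib (ribbon) has a BTB domain, which pairs proteins with one another, and is known for its part in shaping the trachea and the salivary gland.

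A summit is the base at which a peak is highest. Genes with a summit of the joint list of both replicates within 500 bp of any of their transcription start sites (TSSs) are called bound here. Of the 73 genes, 19 were bound, or 26.0% (95% exact interval 16.5% to 37.6%), beside a background of 18.2% over all protein-coding genes. The background lies inside the interval. The bound genes were 11 of 47 for the large subunit (23.4%, interval 12.3% to 38.0%) and 8 of 26 for the small subunit (30.8%, interval 14.3% to 51.8%). Proteins numbered up to 36 in the large and up to 21 in the small subunit are named after bacterial ones, and 13 of their 42 genes were bound (31.0%). Of the 31 genes with higher numbers, 6 were bound (19.4%). These shares have wide, overlapping intervals and were not tested against each other. Most of the 73 genes have a single annotated TSS (67 genes, mean 1.10 per gene, against 1.41 over all protein-coding genes), so few had more than 1 chance to be called.

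The sequences under 5 of the 8 strongest summits are shown first, since base composition comes up again below. The other 3, mRpL41, mRpL23 and mRpL53, are not shown. The 5 do not stand for all 8, since mRpL53 had a GC content of 55.4%, above all of those shown. Each runs from 50 bp before to 50 bp after the summit, on the plus strand of the dm6 assembly. Capitals mark the longest unbroken run of A and T. At mRpS10 a later run of equal length is left in small letters. The gene on the other side of the summit is named with each sequence.
mRpS10 and Art3, chr3R:15229484-15229584: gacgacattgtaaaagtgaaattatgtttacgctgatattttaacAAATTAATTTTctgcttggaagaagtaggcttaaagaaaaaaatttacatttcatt
mRpS23 and CenG1A, chr2L:13835418-13835518: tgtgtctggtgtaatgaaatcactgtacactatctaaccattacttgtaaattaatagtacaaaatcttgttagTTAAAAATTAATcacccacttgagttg
mRpL20 and Icmt, chr3L:13018113-13018213: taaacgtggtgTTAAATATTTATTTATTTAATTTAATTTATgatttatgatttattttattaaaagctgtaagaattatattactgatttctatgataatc
mRpL24 and betaggt-I, chr2L:4945436-4945536: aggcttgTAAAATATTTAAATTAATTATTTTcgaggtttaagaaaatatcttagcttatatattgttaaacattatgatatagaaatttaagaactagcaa
mRpS2 and Mon1, chr2L:4850536-4850636: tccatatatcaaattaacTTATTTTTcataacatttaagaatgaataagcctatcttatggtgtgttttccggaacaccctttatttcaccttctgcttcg
The longest run is 30 bp at mRpL20 and 24 bp at mRpL24, against 11 bp at mRpS10, 12 bp at mRpS23 and 8 bp at mRpS2.

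At 4 genes the peak stood far above the other members. Signal stands for the height of a peak as the caller reports it, in a unit that the sources do not define. At mRpL41, which encodes a large subunit protein without a bacterial counterpart, it was 612 in replicate 1 and 641 in replicate 2, and 1253 in the joint list, where the peak ranks at 5 of 4606. At mRpS10, which encodes a small subunit protein conserved from bacteria, it was 460 and 398 in replicates 1 and 2 and 869 in the joint list (rank 11). These peaks ranked among the 12 strongest of each replicate's ranked list as well.

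At mRpS23, which encodes a small subunit protein found in mitochondria only, the signal was 457 in replicate 1, 394 in replicate 2 and 859 in the joint list (rank 12). At mRpL23, whose protein lines the exit of the peptide tunnel, it was 339, 386 and 731 in the same order (rank 20). These 4 genes thus have peaks among the 20 strongest of the genome. In the joint list the signal was near the sum of both replicates: it was 0.975 to 1.13 times that sum at the 8 strongest members.

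A second group of 4 genes had intermediate peaks that passed the threshold on the irreproducible discovery rate (IDR) of 0.01 in each replicate. mRpL20 had a signal of 115 in replicate 1 and 112 in replicate 2, and 222 in the joint list. mRpL24 had 108, 113 and 216, and mRpS2 had 88.3, 86.9 and 184. mRpL53 had 84.2, 67.3 and 171. Neither replicate was higher throughout these 8 genes, since replicate 1 gave the higher value at 5 of them. The proteins of mRpL20, mRpL24 and mRpS2 have bacterial counterparts, and that of mRpL53 has none.

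The other 11 bound genes had weak peaks with less support from single replicates. Their joint signals were 100 at mRpL18 and at mRpL33, 83.2 at mRpS17, 78.8 at mRpS21, 76.1 at mRpL39, 71.2 at mRpL40, 69.9 at mRpS14, 68.9 at mRpS18B, 64.2 at mRpL34, 59.1 at mRpL2 and 18.5 at mRpS31. All lie below 106, the median of the 2547 bound protein-coding genes, and the median of all 19 bound members was 100. The gene mRpL2 encodes the protein next to the site where peptide bonds are made. A peak of the thresholded list of a single replicate overlapped the peak at 4 of these genes: replicate 1 alone at mRpS21 and mRpS14, and replicate 2 alone at mRpL33 and mRpS18B. At 6 (mRpL18, mRpS17, mRpL39, mRpL40, mRpL34 and mRpL2) neither replicate's list had one.

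At several of the weak genes the replicates were far apart. mRpS21 had a signal of 64.2 in replicate 1 and 13.5 in replicate 2, and mRpS14 had 52.1 and 19.8. At mRpL40, replicate 1 had no overlapping region in its ranked list and replicate 2 had one of 18.3. The score in the lists is the IDR rescaled, and 830 stands for an IDR of 0.01: mRpL40, at 838, was the bound member closest to that limit. At mRpS31 the peak overlaps a stronger one, with a signal of 119 and its summit 610 bp upstream of the mRpS31 TSS. Thresholded peaks of both replicates overlapped the weaker peak, but the ranked regions with the nearest summits had signals of 6.34 in replicate 1 and 46.1 in replicate 2.

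**Figure D1:**
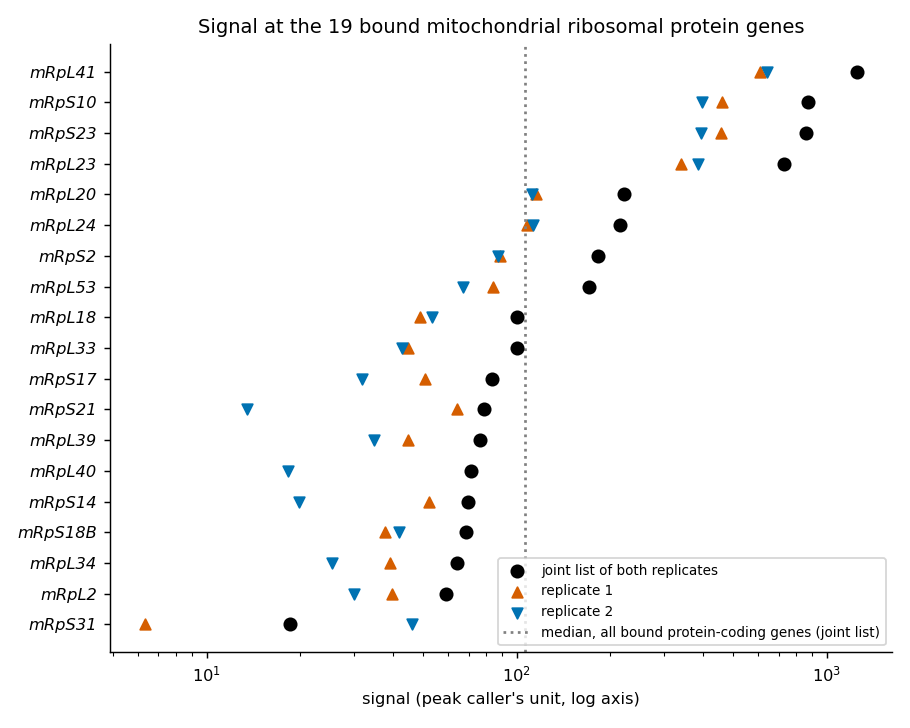
Signal of the peak at each of the 19 bound genes on a log axis, in the joint list (black circles), in replicate 1 (upward triangles) and in replicate 2 (downward triangles), with the median of all bound protein-coding genes in the joint list (dotted line, 106). Joint signals run from 1253 at mRpL41 to 18.5 at mRpS31, and 8 genes lie above the dotted line.

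Nearly all of these summits also lay near the start of a neighbouring gene. At 17 of the 19 bound genes a TSS of another protein-coding gene lay within 500 bp of the same summit, and in each of the 17 that neighbour is transcribed from the opposite strand. Over all bound protein-coding genes, 1094 of 2547 (43.0%) shared their summit with a protein-coding gene on the opposite strand. At 11 of the 17 the summit lay between the nearest starts of both genes, upstream of each. Such a summit cannot be given to either gene from its position.

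For the strongest shared peaks, the neighbours are genes of varied function. The mRpS10 summit was 131 bp upstream of the nearest mRpS10 TSS and 126 bp upstream of Art3, which encodes an arginine methyltransferase. The mRpS23 summit was 396 bp upstream of mRpS23 but only 96 bp upstream of CenG1A, a regulator of Arf GTPases. The mRpL20 summit was 296 bp upstream of mRpL20 and 103 bp upstream of Icmt, which methylates prenylated proteins. These summits were in intergenic sequence.

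The mRpL24 summit was 125 bp upstream of mRpL24 and 93 bp upstream of betaggt-I, a subunit of a prenyltransferase. That of mRpS2 was 167 bp upstream of mRpS2 and 55 bp upstream of Mon1, which helps to activate Rab7 on endosomes. That of mRpL53 was 98 bp upstream of mRpL53 and of CG33155, which has the same start. It was also 72 bp upstream of the nearest TSS of AGO1, the Argonaute of the microRNA pathway, and in an intron of AGO1. At mRpL23 the summit lay 84 bp downstream of the nearest of its 3 TSSs, in an intron, and 134 bp upstream of CG9004. Counting over all 19, the neighbour's TSS was the nearer one at 13 and the member's own at 6.

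Among the weaker peaks, 4 summits lay in the 5′ UTR of the neighbour: 64 bp into Taz, which remodels cardiolipin (with mRpL18), 57 bp into Nop60B, a pseudouridine synthase of the nucleolus (with mRpS17), 75 bp into Droj2, a DnaJ chaperone (with mRpS21), and 115 bp into Naa15-16, of an N-terminal acetyltransferase (with mRpS14). The mRpL33 summit was 364 bp from mRpL33 and 31 bp upstream of norpA, the phospholipase C of phototransduction. That of mRpL34 was 269 bp from mRpL34 and 115 bp upstream of Dg (dystroglycan). That of mRpL39 was 132 bp upstream of mRpL39 and 153 bp upstream of Prosbeta2, a proteasome subunit, and that of mRpL2 was 20 bp upstream of mRpL2 and 44 bp upstream of the forkhead gene FoxK. The summits of mRpS31 and mRpS18B had hzg (47 bp) and Kua (337 bp) as neighbours.

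Only mRpL41 and mRpL40 had no other protein-coding TSS within 500 bp of their summit. The mRpL41 peak (chr2R:15217596-15217905) had its summit in intergenic sequence 125 bp upstream of the single TSS of mRpL41 (2R 15217024 to 15217617, minus strand). The nearest start of another protein-coding gene is 762 bp away, and the start of the non-coding gene lncRNA:CR44463, on the same strand, was 453 bp upstream of the summit. The mRpL40 summit was 8 bp downstream of its TSS, in the 5′ UTR, and the nearest other protein-coding start is 1957 bp away. One holds the strongest peak of the family and the other one of the 11 weaker peaks.

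**Figure D2:**
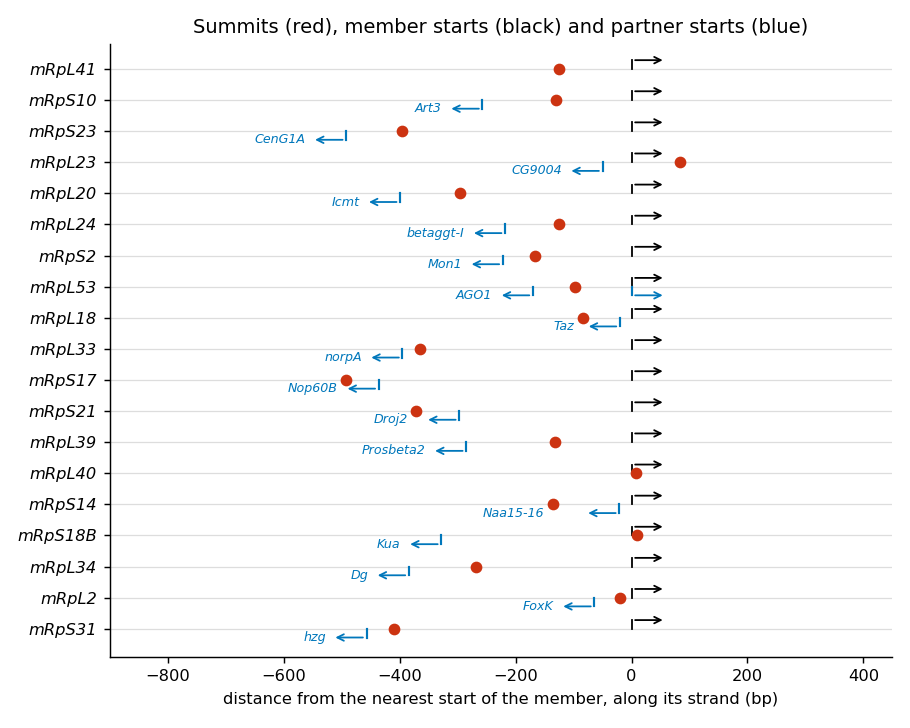
Position of the summit (red) at each bound gene relative to the nearest start of that gene (black arrow, direction of transcription to the right), with starts of protein-coding neighbours within 500 bp of the summit (blue arrows; the unlabelled one at mRpL53 is CG33155), in bp along the strand of the member. At 11 genes the summit lies between opposed starts, and the upstream distance reaches 493 bp at mRpS17.

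Of the 19 summits, 16 were upstream (84.2%, exact interval 60.4% to 96.6%) and 3 downstream of the member's nearest TSS, and the median offset was -132 bp. Over all bound protein-coding genes 69.2% were upstream, with a median of -71 bp. Within 200 bp lay 12 of the 19 (63.2%, interval 38.4% to 83.7%), against 76.1% of all bound genes. Both backgrounds lie inside the intervals of these 19 genes.

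When each summit was given only to the gene with the nearest TSS, 7 of the 73 genes were left, or 9.59%, beside a background of 14.6% counted the same way. The share of members was then below that of all genes, where it had been above it. A window of 200 bp left 12 genes (16.4%, beside 14.5%). A window of 1000 bp gave 25 genes (34.2%, beside 21.6%), and all ranked regions with a score of 540 or more gave 30 (41.1%, beside 27.2%). The share was above that of all genes in each of these except the assignment to the nearest TSS.

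Opposed starts are common in this family. A TSS of another protein-coding gene on the opposite strand lies within 500 bp of a TSS in 53 of the 73 genes (72.6%), against 27.8% of all protein-coding genes. Of those 53 genes, 17 were bound, or 32.1% (exact interval 19.9% to 46.3%), beside a background of 31.6% over all 3878 protein-coding genes with such a neighbour. Of the other 20 genes, 2 were bound, or 10% (1.23% to 31.7%), beside 13.1%. Within each kind of promoter the members were thus bound about as often as other genes, at the precision of these counts, and both backgrounds are inside the intervals. An opposed start within 500 bp did not go with a peak at most members, since 36 of the 53 had no peak.

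**Figure D3:**
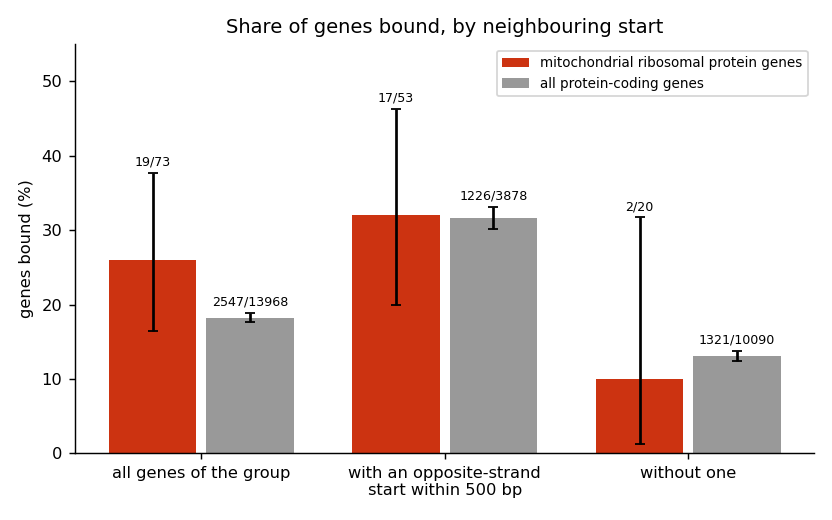
Percentage of genes bound among the mitochondrial ribosomal protein genes (red) and all protein-coding genes (grey), for all genes and split by whether an opposite-strand protein-coding start lies within 500 bp; error bars are 95% exact binomial intervals and the fractions give bound over all genes. The members' bar is 26.0% against 18.2% over all genes, but 32.1% against 31.6% among genes with such a neighbour.

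The lists of the single replicates bound fewer members than the joint list. The list of replicate 1 bound 12 members (background 13.0%) and that of replicate 2 bound 10 (background 10.7%), and 8 members were in both (11.0%, beside 8.00%). Those 8 are the 8 with the highest joint signals. With a looser limit on the score (540 or more, an IDR of 0.05), 20 members had a region in replicate 1 (27.4%, interval 17.6% to 39.1%, beside 21.1%). In replicate 2 there were 18 (24.7%, interval 15.3% to 36.1%, beside 16.1%), and 12 were in both (16.4%, interval 8.79% to 27.0%, beside 12.4%). At a score of 830 or more, 8 members had a region in both (11.0%, interval 4.85% to 20.5%, beside 8.23%). Each of these shares by score was above its background, and each background lies inside the interval.

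Across the 61 members with a ranked region in both replicates, the log2 signals of the replicates correlated with r = 0.82 (Pearson) and rho = 0.48 (Spearman). The points share the same pair of libraries, and members are not independent replicates. Over 9227 protein-coding genes the values were 0.74 and 0.71. Of the 61 members, the 18 bound ones gave r = 0.96 and rho = 0.89. The 43 unbound ones gave r = -0.09 and rho = -0.04, so among them the replicates did not rank the genes alike. Being bound rests on a threshold on the IDR of the joint list, a measure of reproducibility, so this split is a description only. Each gene, bound or not, entered with its highest region within 500 bp of a TSS. These values can differ from those given above for the region at the summit. At mRpS31 they were 17.6 in replicate 1 and 19.5 in replicate 2, against 6.34 and 46.1.

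**Figure D4:**
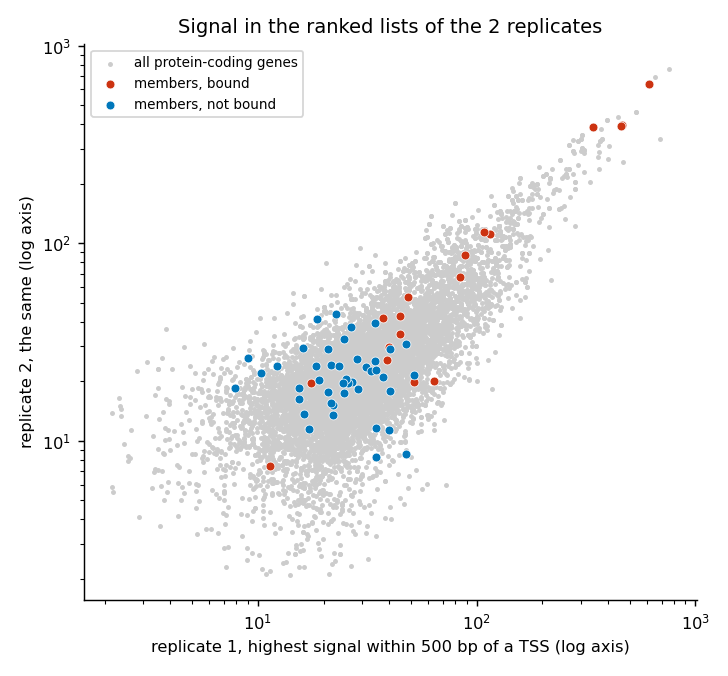
Highest signal within 500 bp of a TSS in the ranked list of replicate 1 (x axis) and of replicate 2 (y axis), on log axes, for bound members (red), unbound members (blue) and all protein-coding genes (grey). The strongest bound members lie on the diagonal up to 612 and 641, while unbound members form a cloud that reaches 51.6 in replicate 1 and 44.1 in replicate 2.

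Of the 54 unbound genes, 50 had some ranked region within 500 bp of a TSS, with joint signals of 3.73 to 70.5 and a median of 42.8. The median over unbound protein-coding genes with a region was 36.5. The highest were 70.5 at mRpS26, 70.4 at mRpL47, 68.9 at mRpL37, 66.7 at mRpS16 and 66.1 at mRpL11. These exceed the joint signals at bound mRpL34, mRpL2 and mRpS31, and the threshold is on the IDR and not on signal. A peak could pass in the joint list without support in each replicate. At bound mRpL40, replicate 1 had no overlapping region and that of replicate 2 had a score of 56. The mRpL47 region has a score of 1000 in the joint ranked list but is not in the thresholded list, so mRpL47 was not counted as bound. At mRpL11 the score was 814, just under the limit of 830. In single replicates, 6 unbound members had a region with a score of 540 or more in replicate 1 (mRpL32, mRpL37, mRpL47, mRpS6, mRpS22 and mRpS24) and 5 in replicate 2 (mRpL1, mRpL4, mRpL11, mRpS6 and mRpS29). Of these 10 genes, mRpS6 alone had one in both, with scores of 1000 in replicate 1 and 670 in replicate 2.

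The nearest summit of the thresholded list was 504 bp to 1538866 bp from an unbound member, with a median of 6309 bp, and over 10000 bp away at 19 of the 54. Just inside the limit of 500 bp lay mRpS17 (493 bp), and just outside mRpS22 (504 bp upstream, signal 71.7) and mRpS6 (517 bp upstream, signal 97.1). Up to 1000 bp followed mRpL19 (559 bp), mRpL22 (585 bp), mRpL55 (724 bp) and mRpS26 (836 bp). For 5 of these 6 summits another protein-coding gene had the nearest TSS: CG5003, Cip4, if, cdi and CG13698. Both mRpS22 and mRpS6 were bound in the list of replicate 1. No region at all was within 500 bp of mRpL30, mRpS5, mRpS18A or mRpS33 in the joint ranked list or in either replicate's.

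The summits of the stronger members lay in DNA poor in G and C. The GC content of this window, 50 bp to each side of the summit, was 25.7% at mRpL41 and at mRpS10, 29.7% at mRpS23, 21.8% at mRpL23, 15.8% at mRpL20, 19.8% at mRpL24 and 31.7% at mRpS2, but 55.4% at mRpL53. The median of the 8 strongest was 25.7%, against 41.6% for the 11 weaker, which ranged from 22.8% (mRpL39) to 56.4% (mRpL2). Across the 19 members GC content and log2 signal correlated with r = -0.59 (Pearson) and rho = -0.65 (Spearman), as a description over peaks that share their libraries.

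A relation of this kind was not limited to the family. Over the 2395 summits near protein-coding starts r was -0.20 and rho -0.23. The 100 strongest summits of the genome had a median GC content of 30.7%, against 44.6% over all 4606. The 100 bp before the most upstream TSS, with that base, had, over the 54 unbound members, a median of 38.6%, beside 40.6% over all protein-coding genes. The part of base composition in the signal was not tested.

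**Figure D5:**
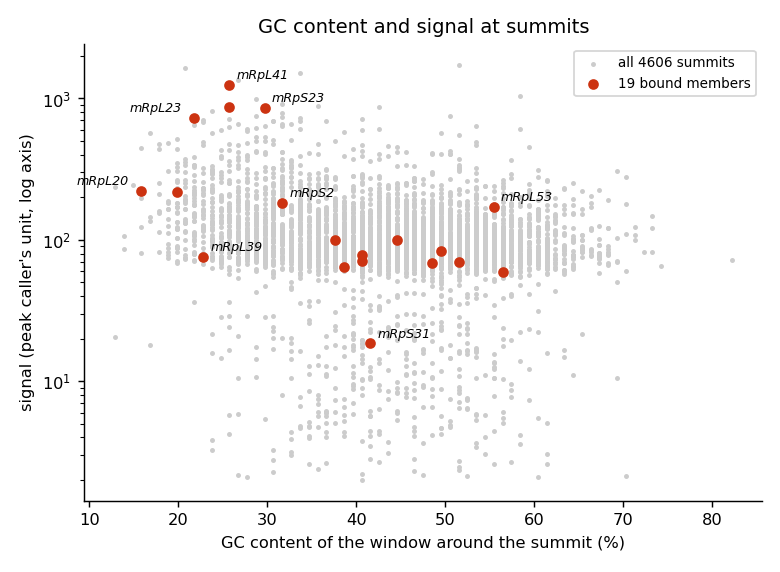
GC content within 50 bp of the summit (x axis, %) and joint signal (y axis, log) at the 19 bound members (red) and at all 4606 summits (grey). Of the 8 members with a signal above 110, 7 lie below 32% GC, and mRpL53 at 55.4% is the exception.

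At least 1 of 10 promoter motifs was present at 11 of the 19 summits (57.9%, exact interval 33.5% to 79.7%), beside 39.4% of all summits and 42.0% of those near protein-coding starts. Of these motifs, searched on both strands within 50 bp of the summit, the E-box CAGCTG was found at 4 of the 19 bound members (21.1%), namely mRpL18, mRpL2, mRpL40 and mRpS18B, against 5.23% of all summits and 6.10% of summits near protein-coding starts. All 4 are among the 11 weaker members. The sites below are on the plus strand with CAGCTG in capitals, for the 3 of these genes whose sequence is shown and for the first 3 unbound members with the motif in alphabetical order, for comparison.
mRpL2, bound, chr3L:11120845-11120874: aacgccgcgtaaCAGCTGttttcagccgca
mRpL40, bound, chr3R:11407929-11407958: cagcaacaaaaaCAGCTGttcgtacattac
mRpS18B, bound, chr2L:20097216-20097245: gagccggcggatCAGCTGttttccgataca
mRpL11, not bound, chr3R:14511821-14511850: cagcaataccatCAGCTGttgctgcttctt
mRpL14, not bound, chrX:2344704-2344733: taacagagcaagCAGCTGttaagagcggac
mRpL21, not bound, chr3L:19255067-19255096: cgcgttttcgaaCAGCTGtgttagcatgcg

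The E-box had a like share at the starts of bound and unbound members. In the 100 bp before the most upstream TSS it was in 4 of 19 bound members (21.1%) and 11 of 54 unbound ones (20.4%), against 7.67% of all protein-coding genes. These matches are not those counted at the summits. The sites shown above for bound mRpL2, mRpL40 and mRpS18B lie downstream of the TSS, outside this window. Those shown for the unbound genes lie upstream of it, so the printed sites come from unlike windows. A match is a description of the letters and not a binding site.

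The remaining motifs were rare at the summits. The core of motif 7, CATCNCTA, was at 3 (mRpL33, mRpL34 and mRpL40; 15.8%, against 1.72% of all summits and 3.01% of those near protein-coding starts), and GAGAG, the word of GAGA factor, at 2 (mRpL53 and mRpS17; 10.5%, against 19.2% and 18.4%). The replication-related element TATCGATA was at mRpS18B, the motif 1 core GGTCACAC at mRpS31, the motif 6 core GTATTTTT at mRpL41 and TATAAA at mRpL23. The NRF1 type motif, the Zelda word CAGGTAG and the TCT type initiator CTCTTTC were at none of the 19. In the windows at the starts the replication-related element was in 9 of 73 members (12.3%, against 6.29% of all genes), 3 of them bound. With counts this small, no motif can be called particular to the bound members.

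Of 47 other genes that mitochondria need to express their own DNA, 6 were bound, or 12.8% (exact interval 4.83% to 25.7%). They included PNPase, which degrades RNA (signal 732), and SLIRP2 (490, 122 bp upstream) and SLIRP1 (80.2), of mitochondrial RNA stability. The others were the synthetase genes LeuRS-m (234) and AspRS-m (99.8), and mtSSB, which coats single-stranded mitochondrial DNA (118). The SLIRP2 summit was also 166 bp upstream of Mkk4, and that of SLIRP1 was 177 bp upstream of both SLIRP1 and anox. That of LeuRS-m was 90 bp upstream of LeuRS-m and 76 bp upstream of Dhc64C. These shared summits cannot be given to either gene from their position. None of the 9 mitochondrial translation factor genes was bound, nor were tko and bonsai, which encode proteins of the small mitochondrial subunit under other names. The background of 18.2% is inside the interval, so these counts do not set the list apart.

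For comparison, 49 of 93 genes with the symbols of cytoplasmic ribosomal proteins were bound (52.7%, exact interval 42.1% to 63.1%), and 16 of 92 oxidative phosphorylation genes (17.4%, interval 10.3% to 26.7%). The interval of the mitochondrial ribosomal protein genes ends at 37.6%, below that of the cytoplasmic ones, though the difference itself was not tested. The cytoplasmic genes have a mean of 1.70 annotated TSSs each, the oxidative phosphorylation genes 1.45 and the mitochondrial ribosomal protein genes 1.10. More TSSs give more chances to be called, and the part of this in the shares was not tested. The median signal of the bound genes was 100 for the mitochondrial ribosomal protein genes, 115 for the cytoplasmic ones and 93.8 for oxidative phosphorylation. The highest cytoplasmic peak had a signal of 366, below those of 4 mitochondrial ones.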

How the data were processed

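The authors deposited ranked regions and IDR-thresholded peaks on dm6 for each replicate and for the series, per the labels and the files' names. Aligner and caller: not given in the sources used here. Chromatin was sonicated to 200 to 800 bp, per the labels. The signal deposited by the authors is the peak caller's unit, with its scaling not stated. The score deposited by the authors is the IDR rescaled, which was checked against the deposited −log10 of the IDR (within 1 for 100% of ranked regions). In the joint ranked list, 2 unnamed columns of per-sample values were not used.

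The joint list held 4606 peaks, and those of replicates 1 and 2 held 3082 and 2181. A second list of the series, labelled conservative by the authors, held 3959. Gene models came from Ensembl release 115 (BDGP6.54), and sequence from the Release 6 assembly of RefSeq. Python 3.11.15, numpy 2.4.6, scipy 1.17.1, pandas 2.3.3 and matplotlib 3.10.9 were used. Replicate values given for single bound genes are those of the overlapping ranked region (at least 1 bp) with the nearest summit. For unbound genes, and for all genes in the correlations between replicates, they are those of the highest region within 500 bp.

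With 1 group and no control, no test was made: shares have 95% exact (Clopper-Pearson) intervals, which cover counting of genes only. Assignment was checked on 200 planted summits, and 200 were placed correctly. Of the 36 symbols of mitochondrial gene expression listed by name, 32 matched, and 15 synthetase genes were added by pattern. Named by rule were bound members, those with a summit within 1000 bp, unbound ones with a score of 540 or more in a replicate, the 5 unbound ones with the highest signal, and neighbours at the same summit. The members and lists were chosen with earlier results of these data known; the split by numbering, the split at a signal of 110, GC content, motifs at starts and the share with any motif were added after these files were examined. Positions are 1-based.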

Additional observations from a re-analysis of the deposited data

How the results depend on the processing

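Of 11 alternatives for the count of 19 bound members, 4 stayed within 1.5 times. They were 25 with 1000 bp (34.2%, beside 21.6% of all genes) and 13 in the conservative list (17.8%, beside 16.5%). The most upstream TSS alone gave 19 (26.0%, beside 16.0%). All ranked regions of score 830 or more gave 20 (27.4%, beside 18.7%), a setting chosen after seeing the data. The others gave 12 with 200 bp (16.4%, beside 14.5%), 10 in the stronger 50% of peaks (13.7%, beside 11.5%) and 30 with a score of 540 or more (41.1%, beside 27.2%). Where the peak had to overlap the TSS there were 11 (15.1%, beside 13.2%), and with the nearest TSS alone 7 (9.59%, beside 14.6%). There were 10 without replicate 1 (13.7%, beside 10.7%) and 12 without replicate 2 (16.4%, beside 13.0%). The share of members exceeded that of all genes in 10 of the 11, at times by little, and fell below it with the nearest TSS alone. These alternatives recut the same peaks and are not separate evidence. Upstream summits numbered 9 with 200 bp and 9 to 11 without single replicates, and shared summits 9 with 200 bp and 9 to 11 without single replicates, because fewer genes were bound. The median signal was 184 in the conservative list, which lacks 6 of the weaker genes, and 98.4 to 113 in the single replicates, on their own scale. Ranks in place of log2 signal gave r = 0.25 between replicates; the cause was not tested. Of 33 recomputed signals of single members, 32 were within 1.5 times, and mRpS31 had 119 in the conservative list through its neighbouring peak. No paired analysis was possible because there is 1 group. Depth is unknown, and with 73 genes the interval of the share runs from 16.5% to 37.6%.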
